A study of Mus musculus with 15 samples.

Results

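Leukemia stem cells (LSC) from gonadal adipose tissue (AT LSC) were set against LSC from bone marrow (BM LSC) in mice bearing a model of chronic myeloid leukemia in blast crisis. The disease was driven by the human oncogenes BCR-ABL and NUP98-HOXA9, expressed together in both groups. Recipients were female mice aged 3 months, and both groups were collected at day 12 after the leukemia cells were transplanted. Each group had 3 RNA-seq libraries, and the sort that defined an LSC, the mouse strain and whether the libraries came from separate mice are not stated in the labels. The genes described are all those with an FPKM (fragments per kilobase of transcript, scaled to library depth, so a level per unit of length) of 1 or more in AT LSC or BM LSC, in all 8781 of 23359 genes. Of these, 6933 reached that level in both groups, 589 in AT LSC alone and 1259 in BM LSC alone. The rule used levels and not differences. It had no natural gap at its edge, since 25 genes lay within 1% above it and 29 within 1% below it.

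The authors deposited 1 pooled FPKM per gene and group, with bounds 2 standard deviations on either side, so no value of a single library is available here. All levels below are these pooled FPKM, with the bounds in brackets. Folds are log2 of AT LSC over BM LSC, turned round in sign because the authors' deposited table lists them the other way. The ± after a fold is the standard error implied by the authors' own test statistic, and a gene was called when the authors' q-value, from Cuffdiff, was below 0.05. The p-values behind q measure the spread between libraries, which may be technical. Pooled depth was 1.96e+07 estimated counts for AT LSC and 1.65e+07 for BM LSC.

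Blast-crisis leukemia cells are blocked early in myeloid development, and LSC are the fraction able to renew the disease. Myeloid cells sense danger through Toll-like, lectin and formyl peptide receptors, which act through the transcription factors NF-kB and AP-1 to induce cytokines, chemokines and their own feedback inhibitors. Adipose tissue is known to hold macrophages that take up fatty acids and store them in droplets.

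Many genes of innate sensing and inflammatory response were higher in AT LSC than in BM LSC, together with the heme oxygenase gene Hmox1 and genes of lipid storage, lysosomes and late myeloid granules. Genes of nucleoli, nucleotide synthesis, chromosome segregation, DNA repair, interferon response and the red cell, platelet and mast cell lineages were called lower in AT LSC, most of them in fewer numbers once folds were centred. Of the 13160 genes with a test in the authors' deposited table, 22.8% were called, 7.24% higher and 15.5% lower in AT LSC. Among the 8673 tested genes of the set described here, 617 were called higher and 1672 lower. The median fold of all tested genes was -0.47, so folds were also centred by adding 0.477, which turned the shares to 11.8% higher and 5.11% lower. The split of calls by direction therefore depended on the scaling, and the counts of each gene list below are given on both scales, with markers, gene families and single genes on the deposited scale unless stated. For every list, deposited counts stand against 7.24% higher and 15.5% lower of all tested genes, and centred counts against 11.8% and 5.11%. In bulk RNA, fewer cells of a type and less RNA per cell cannot be told apart.

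**Figure D1:**
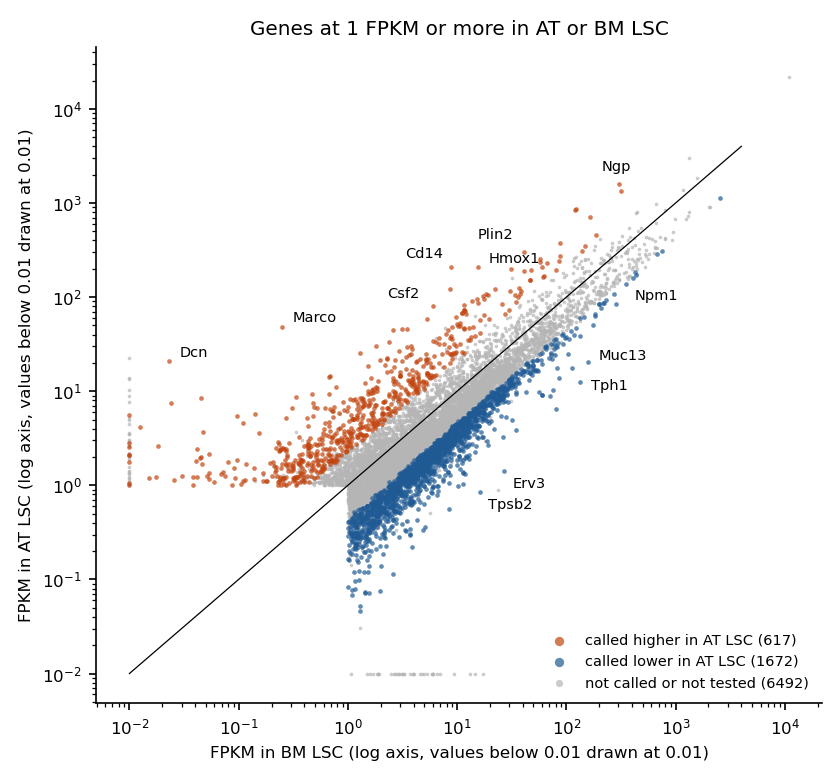
Pooled FPKM of the 8781 genes in AT LSC (vertical, log axis) and BM LSC (horizontal, log axis), with 617 genes called higher and 1672 called lower by the authors' deposited table and the line of equal values. Called-higher genes such as Marco (48.5 against 0.251 FPKM) and Cd14 (211 against 8.81 FPKM) stand far above the line, and called-lower genes form a dense band below it.

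Calls were spread over all levels. Of the 361 tested genes at 100 FPKM or more in the higher group, 10.2% were called higher and 8.03% lower by the authors' deposited table. Of the 2847 at 5 to 20 FPKM, 6.57% were called higher and 23.5% lower there. The lower calls therefore lay mostly in the middle of the range, while higher calls kept a similar share at each level. Genes called higher had a median of 1.89 FPKM in AT LSC, against 0.395 FPKM in BM LSC, and genes called lower a median of 1.2 FPKM in AT LSC, against 3.93 FPKM in BM LSC. The smallest fold called within the authors' deposited table was 1.07 in size.

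Cells of the fat depot other than leukemia cells were checked first through markers. Adipocyte markers were close to 0 in both groups, with Adipoq, the adipocyte hormone adiponectin, at 0.0304 FPKM in AT LSC, against 0.0189 in BM LSC, and Plin1, the droplet coat of fat cells, at 0.00696 and 0.0151. All 6 fixed adipocyte markers were below 1 FPKM in both groups, with sums of 0.693 and 0.0631, and 1 of them was called higher, the droplet gene Cidec at 0.263 FPKM in AT LSC, against 0.013 in BM LSC. A wider adipocyte list, which holds genes that macrophages also express, gave 4 higher and 0 lower of 10 tested, on both scales, and summed to 56.8 FPKM in AT LSC, against 8.63 in BM LSC. Most of that sum was Fabp4, a fatty acid binding protein of fat cells and macrophages, at 46.2 FPKM in AT LSC, against 3.45 in BM LSC. Stromal markers were present in AT LSC, where 6 of 7 tested were called higher and their summed level was 29 FPKM in AT LSC against 0.653 in BM LSC. Dcn, the fibroblast proteoglycan decorin, made up most of it, at 21 FPKM [7.33 to 34.6] in AT LSC, against 0.0232 in BM LSC, whereas Col1a1, a main fibroblast collagen, was at 0.271 and 0.00791. A wider list of stromal and matrix markers gave 13 higher and 0 lower of 16 tested, on both scales. Its share called higher was 81.2%, against 7.24% of all tested genes. Endothelial markers summed to 1.6 FPKM in AT LSC, against 0.621 in BM LSC, with Cdh5, the vascular cadherin, at 0.276 and 0.00259. T and NK cell markers summed to 134 FPKM in AT LSC, against 215 in BM LSC, and B cell markers to 1.46 and 2.89. The granule gene Nkg7 gave most of the T and NK cell sum, at 130 FPKM in AT LSC, against 203 in BM LSC. Macrophage markers summed to 80.8 FPKM in AT LSC, against 49.2 in BM LSC, with 3 of 6, Csf1r, Mertk and C1qb, called higher by the authors' deposited table. Mertk, an uptake receptor for dying cells, was at 0.934 FPKM in AT LSC, against 0.3 in BM LSC, and the complement gene C1qb at 9.78 and 4.34. Of the others Emr1, which encodes the macrophage protein F4/80, was at 46 FPKM in AT LSC, against 40.2 in BM LSC, and was not called, and the further complement genes C1qa and C1qc were below 1 FPKM in both groups. A wider list of monocyte and macrophage markers gave 10 higher and 0 lower of 20 tested by the authors' deposited table. After centring its counts were 12 and 0. Its median fold was 1.22, and it summed to 2310 FPKM in AT LSC, against 648 in BM LSC. The lysozyme genes Lyz1 and Lyz2 are on that list, at 854 and 852 FPKM in AT LSC, against 122 and 121 in BM LSC. Markers of mature neutrophils summed to 1930 FPKM in AT LSC, against 393 in BM LSC, with 3 of 5 tested called higher, and Ly6g was not analysed here. The granule gene Ngp gave most of that sum, at 1605 FPKM in AT LSC, against 301 in BM LSC. Retnlg and Mmp8 were not called, at 11.3 and 9.91 FPKM in AT LSC, against 6.68 and 7.05 in BM LSC. The part of adipocyte, stromal, macrophage or neutrophil RNA in the results below was not tested.

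LSC markers were checked next. Ly6a, which encodes the stem cell antigen Sca-1, stood at 109 FPKM [48.9 to 169] in AT LSC, against 105 [72.9 to 137] in BM LSC, and was not called. Kit, the stem cell factor receptor, was at 1.64 FPKM in AT LSC, against 2.93 in BM LSC, and the authors' test of it failed. Cd34, a progenitor surface protein, was lower, at 8.07 FPKM [3.08 to 13.1] in AT LSC, against 24.3 [15.2 to 33.4] in BM LSC. Its fold was -1.59 ± 0.52 with q 0.0152 by the authors' deposited table, and it was not called after centring.

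Many receptors that sense microbes and tissue damage rose in AT LSC. Of 20 tested C-type lectin, NOD and TREM genes, 11 were called higher and 0 lower by the authors' deposited table, and of 18 Toll-like receptor genes and adaptors, 7 and 1, against 7.24% and 15.5% of all tested genes. After centring the counts were 16 and 0, and 8 and 1. Median folds were 1.52 and 0.71, against -0.47 for all tested genes. Trem1, an amplifier of Toll-like receptor signals, stood at 28.1 FPKM [13.4 to 42.8] in AT LSC, against 3.85 [2.57 to 5.12] in BM LSC. The bounds of the groups did not overlap, and the authors' deposited table gave Trem1 a fold of 2.87 ± 0.45 at q 9.92e-09. Treml4, a neighbour of Trem1 on chromosome 17 (48264295 to 48275358 in mm10), stood at 30.1 FPKM [12 to 48.3] in AT LSC, against 1.8 [0.927 to 2.67] in BM LSC. Clec4e, the receptor Mincle for fungal and mycobacterial glycolipids, was at 58.3 FPKM in AT LSC, against 19.5 in BM LSC. Tlr2, which binds bacterial lipopeptides, was at 18.3 FPKM in AT LSC, against 7.54 in BM LSC, and Tlr4, the endotoxin receptor, at 3.69 and 1.03. Nod1, a cytosolic sensor of bacterial wall fragments, was at 2.74 FPKM in AT LSC, against 0.549 in BM LSC. Treml4, Clec4e, Tlr2, Tlr4 and Nod1 were all called higher, with folds between 1.28 for Tlr2 and 4.07 for Treml4 by the authors' deposited table. The 1 Toll-like gene called lower was Tlr12. Myd88, the shared adaptor of Toll-like and interleukin-1 receptors, was at 20.4 FPKM in AT LSC, against 17.1 in BM LSC, and was not called, with q 0.762 by the authors' deposited table.

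Uptake receptors gave 9 higher and 2 lower of 20 tested by the authors' deposited table, with 10 and 2 once centred. Folds were ranked among called genes at 10 FPKM or more, leaving out predicted genes, merged entries and infinite folds. Marco, a scavenger receptor for bacteria and particles (chromosome 1, 120474538 to 120505084), had the largest of these folds apart from Dcn. It stood at 48.5 FPKM [22.2 to 74.8] in AT LSC, against 0.251 [0.0976 to 0.404] in BM LSC, a fold of 7.60 ± 0.59 at q listed as 0 by the authors' deposited table. Fcgr4, a receptor for IgG, was at 26.6 FPKM in AT LSC, against 2.94 in BM LSC, with a fold of 3.18 ± 0.48 at q 3.91e-09 by the authors' deposited table. Itgam, the CD11b chain of the complement receptor, was at 23.4 FPKM [7.17 to 39.6] in AT LSC, against 6.21 [4.32 to 8.09] in BM LSC, with q 0.0042 by the authors' deposited table.

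Receptors for chemoattractants and metabolites gave 12 higher and 1 lower of 28 tested by the authors' deposited table, with 13 and 1 once centred. C5ar1, the receptor of complement fragment C5a, was the most abundant of those called, at 96.2 FPKM [42.1 to 150] in AT LSC, against 17.7 [12.1 to 23.3] in BM LSC, with a fold of 2.44 ± 0.47 at q 4.8e-06 there. Ltb4r1, the leukotriene B4 receptor, was at 6.76 FPKM in AT LSC, against 0.751 in BM LSC. Fpr1, a formyl peptide receptor, was at 7.07 FPKM in AT LSC, against 1.24 in BM LSC, and Ptafr, the receptor of platelet-activating factor, at 9.99 and 1.53. Niacr1, the receptor for niacin and ketone bodies, was at 14 FPKM in AT LSC, against 1.64 in BM LSC. These 4 were called higher, with folds from 2.51 for Fpr1 to 3.17 for Ltb4r1 by the authors' deposited table. Gpr65, a proton-sensing receptor picked for its opposite direction after the values were seen, was the exception, at 3.92 FPKM in AT LSC, against 15.3 in BM LSC, and it remained called after centring.

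**Figure D2:**
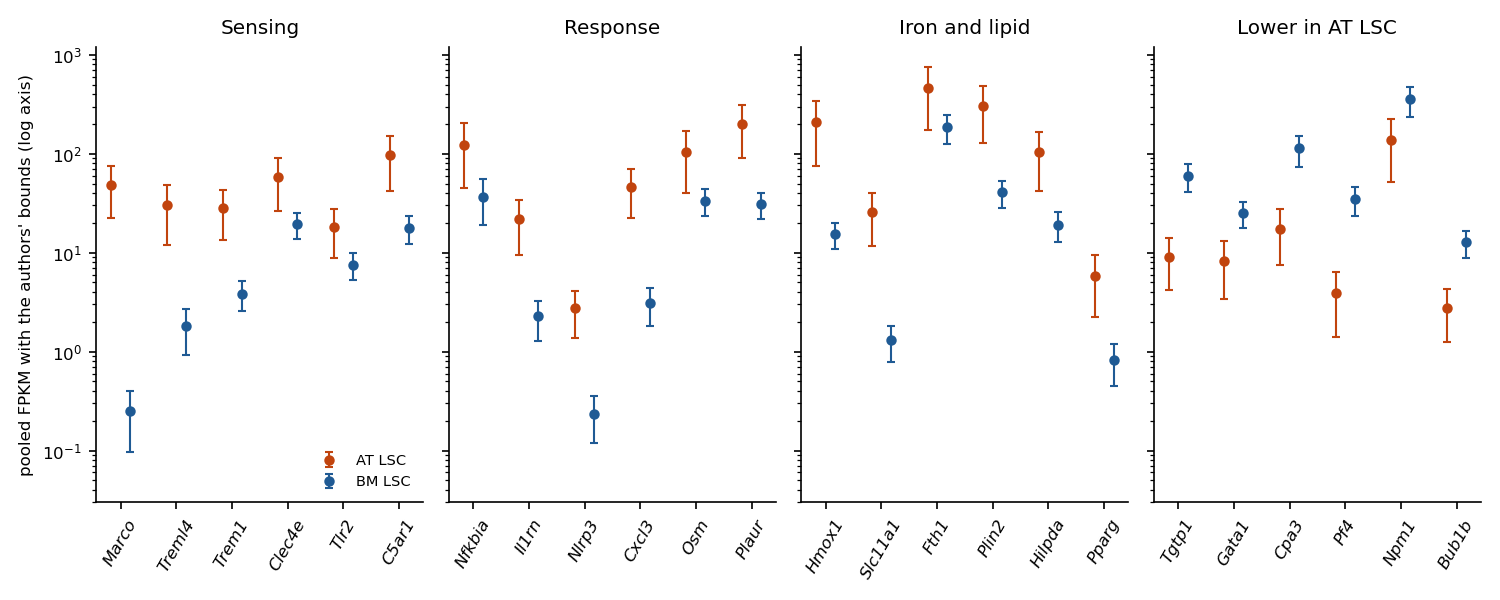
Pooled FPKM (log axis) of 24 genes in AT LSC (left, red) and BM LSC (right, blue), with bars for the authors' bounds of 2 standard deviations. Every gene shown is called; the bounds stand well apart for Marco, Slc11a1 and Pf4 (3.92 against 34.9 FPKM) and overlap for Nfkbia, Osm, Fth1 and Tlr2.

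NF-kB genes called higher included feedback inhibitors, inducible subunits, nuclear cofactors and the upstream kinase genes Map3k8 and Map3k14. Of 21 tested, 11 were called higher and 0 lower by the authors' deposited table, with a median fold of 1.47, and 12 and 0 after centring. Rel, the inducible subunit c-Rel, was at 3.62 FPKM [1.8 to 5.43] in AT LSC, against 0.588 [0.332 to 0.843] in BM LSC, a fold of 2.62 ± 0.48 at q 1.68e-06 by the authors' deposited table. Nfkbiz, an inducible nuclear cofactor, was at 5.59 FPKM in AT LSC, against 1.37 in BM LSC, with a fold of 2.03 ± 0.47 at q 0.000266 by the authors' deposited table. Nfkbia, which encodes the inhibitor IkB-alpha and was named after its values were seen, was the most abundant, at 124 FPKM [45.2 to 202] in AT LSC, against 36.9 [18.9 to 55] in BM LSC. Its fold was 1.75 ± 0.58 with q 0.0164 by the authors' deposited table. Map3k8 was at 12.4 FPKM in AT LSC, against 3.82 in BM LSC, and Map3k14 at 2.46 and 0.753. The subunit genes Nfkb1 and Rela were not called, with Nfkb1 at 14.8 FPKM in AT LSC, against 19.8 in BM LSC, and Rela at 7.84 and 7.51.

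The interleukin-1 ligand, its natural antagonist and an inflammasome sensor rose. Of 20 tested genes of the interleukin-1 system, 6 were called higher and 0 lower by the authors' deposited table, with 8 and 0 once centred. Nlrp3, the inflammasome sensor, was at 2.73 FPKM [1.39 to 4.08] in AT LSC, against 0.236 [0.12 to 0.353] in BM LSC, a fold of 3.53 ± 0.50 at q 2.19e-10 by the authors' deposited table. Il1rn, the receptor antagonist, was at 21.8 FPKM [9.37 to 34.2] in AT LSC, against 2.27 [1.28 to 3.26] in BM LSC, a fold of 3.26 ± 0.52 at q 1.96e-08 by the authors' deposited table. Il1b, the ligand, was at 57.9 FPKM in AT LSC, against 5.3 in BM LSC, so antagonist and ligand were both called higher. Casp1, the protease that matures the ligand, was at 6.3 FPKM in AT LSC, against 10.7 in BM LSC, and was not called. The decoy receptor gene Il1r2 was at 60 FPKM in AT LSC, against 28.4 in BM LSC, and was called only after centring.

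Several families of secreted signals and their receptors held genes called higher. CXC chemokines and their receptors gave 7 higher and 0 lower of 17 tested by the authors' deposited table, and myeloid growth factor and interleukin-6 family genes 11 and 1 of 27. CC chemokines and their receptors gave 4 and 3 of 21, and TNF family ligands and receptors 6 and 3 of 24. After centring these counts were 7 and 0, 13 and 1, 9 and 1, and 9 and 3, in the same order. Cxcl3, a neutrophil attractant, was at 46.4 FPKM [22.3 to 70.4] in AT LSC, against 3.1 [1.83 to 4.38] in BM LSC, next to its paralog Cxcl2 at 123 and 8.64. Il6, a pleiotropic cytokine, was at 61 FPKM [24.7 to 97.4] in AT LSC, against 9.85 [6.58 to 13.1] in BM LSC, with a fold of 2.63 ± 0.49 at q 2.95e-06 by the authors' deposited table. On the receptor side Csf2ra, the alpha chain that binds GM-CSF, was at 3.25 FPKM in AT LSC, against 0.586 in BM LSC, and was called, while its signalling partner Csf2rb was at 42 and 35.5 and was not. Csf1r, the receptor of macrophage colony-stimulating factor, was at 22.9 FPKM [10 to 35.7] in AT LSC, against 3.38 [2.27 to 4.49] in BM LSC, with q 1.91e-07 by the authors' deposited table. Cxcl12, Cxcl13 and Ccl11, chemokines that stromal cells are known to make, reached 1.67, 1.81 and 1.75 FPKM in AT LSC, against 0.116, 0.0409 and 0.00572 in BM LSC, beside the stromal markers given above. The inflammatory CC chemokine Ccl3 was at 243 FPKM in AT LSC, against 114 in BM LSC, and was called only after centring, with q 0.0807 before it by the authors' deposited table.

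The promoters of these groups were searched for the kB motif, which NF-kB is known to bind, on both strands of 300-base windows (250 bases before to 50 after a gene start, RefSeq, GRCm38.p6, which is mm10). Among genes called higher, 4 of 7 CXC windows, 7 of 12 NF-kB gene windows, 3 of 9 interleukin-1 system windows and 1 of 8 growth factor windows held it, against 4.79% of all 32851 windows. Some genes had several windows and some called genes had none. Counted by gene, it lay in 4 of 7 CXC, 5 of 8 NF-kB, 2 of 6 interleukin-1 and 1 of 8 growth factor genes. With uncalled genes included, it lay in 5 of 17 windows of the CXC list, 12 of 24 of the NF-kB list, 5 of 28 of the interleukin-1 list and 4 of 21 of the growth factor list. Over all genes the shares were close together, 5.9% of the windows of genes called higher, 6.02% of those called lower and 5.21% of those tested and not called. The AP-1 motif TGANTCA lay in 10.8% of the windows of genes called higher, 4.44% of those called lower and 5.61% of those tested and not called. For the C/EBP motif TTGCNNAA the shares were 13.2%, 9.38% and 8.96%. Of all windows, 7.81% held the AP-1 motif and 10.8% the C/EBP motif. A match describes letters and not binding. The promoters of both tandem chemokine genes and of the inhibitor gene are shown because they carry the motif close to the start (capitals), with 2 matches in each chemokine gene and 1 in Nfkbia.
Cxcl1, chr5:90890995-90891294, plus strand: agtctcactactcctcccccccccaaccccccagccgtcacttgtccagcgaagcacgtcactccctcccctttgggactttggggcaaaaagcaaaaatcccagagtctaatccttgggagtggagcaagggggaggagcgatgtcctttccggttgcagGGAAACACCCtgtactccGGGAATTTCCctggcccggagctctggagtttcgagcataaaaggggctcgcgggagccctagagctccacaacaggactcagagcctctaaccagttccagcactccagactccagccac
Cxcl2, chr5:90903649-90903948, plus strand: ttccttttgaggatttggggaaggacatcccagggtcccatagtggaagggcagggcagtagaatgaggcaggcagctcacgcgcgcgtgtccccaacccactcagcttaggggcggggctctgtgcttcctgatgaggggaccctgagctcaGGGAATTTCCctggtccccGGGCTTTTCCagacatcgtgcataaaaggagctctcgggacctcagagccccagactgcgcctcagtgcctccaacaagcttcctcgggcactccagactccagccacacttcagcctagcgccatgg
Nfkbia, chr12:55492598-55492897, minus strand: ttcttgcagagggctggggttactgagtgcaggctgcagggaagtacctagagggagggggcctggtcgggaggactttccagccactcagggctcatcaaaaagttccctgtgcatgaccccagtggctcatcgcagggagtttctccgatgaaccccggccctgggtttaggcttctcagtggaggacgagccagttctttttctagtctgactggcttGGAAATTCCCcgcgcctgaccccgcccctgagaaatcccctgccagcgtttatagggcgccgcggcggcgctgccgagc
The matches began 89 and 71 bases before the start of Cxcl1, 97 and 78 before that of Cxcl2 and 29 before that of Nfkbia.

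Of 29 tested AP-1, EGR, NR4A and KLF genes, 13 were called higher and 1 lower by the authors' deposited table, with 16 and 0 once centred. Nr4a1, a nuclear receptor of patrolling monocytes and activated cells, was at 49.4 FPKM [22.2 to 76.6] in AT LSC, against 10.3 [6.96 to 13.6] in BM LSC, with a fold of 2.26 ± 0.46 at q 2.23e-05 by the authors' deposited table. Fosl1, an AP-1 subunit, was at 3.15 FPKM in AT LSC, against 0.453 in BM LSC, and Junb, its partner, at 2.12 and 0.36, and both were called higher. Egr1, an early growth factor response gene, went the other way, at 4.25 FPKM in AT LSC, against 10.7 in BM LSC, with a fold of -1.33 and q 0.0115 by the authors' deposited table, but was not called after centring. Fos, the prototype AP-1 gene, was at 62 FPKM in AT LSC, against 130 in BM LSC, and was not called. Phosphatases and Sprouty genes gave 7 higher and 2 lower of 20 there, and 10 and 0 after centring. Dusp16, a phosphatase of JNK and p38, was at 5.16 FPKM [2.6 to 7.73] in AT LSC, against 0.425 [0.244 to 0.606] in BM LSC, a fold of 3.60 ± 0.47 at q 3.9e-12 by the authors' deposited table. JAK-STAT genes gave 3 higher and 4 lower of 22, which became 5 and 0 after centring, so their balance flipped with the scaling. Among them Socs3, the feedback inhibitor of interleukin-6 signals, was at 2.42 FPKM in AT LSC, against 0.273 in BM LSC. Stat5a, a target of BCR-ABL signalling, was at 1.72 FPKM in AT LSC, against 4.08 in BM LSC, and was not called after centring.

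Proteases, coagulation factors and their inhibitors gave 13 higher and 0 lower of 26 tested by the authors' deposited table, with 16 and 0 once centred and a median fold of 1.25. Plaur, the urokinase receptor on the cell surface, was at 200 FPKM [89.6 to 310] in AT LSC, against 31 [21.8 to 40.1] in BM LSC, a fold of 2.69 ± 0.45 at q 1.26e-07 by the authors' deposited table. Serpinb2, an inhibitor of urokinase, rose as well (chromosome 1, 107511423 to 107525600). It was at 33.1 FPKM [13 to 53.2] in AT LSC, against 2.36 [1.46 to 3.25] in BM LSC. Its fold was 3.81 ± 0.52, with q 2.15e-11 by the authors' deposited table. F7, coagulation factor VII, was at 14.5 FPKM in AT LSC, against 2.99 in BM LSC, and Tgm2, a crosslinking transglutaminase, at 20.1 and 5.21, and both were called.

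Genes of the immune interface gave 8 higher and 1 lower of 17 tested by the authors' deposited table, with 10 and 1 once centred. Before centring 47.1% were higher, against 7.24% of all tested genes. Cd274, which encodes the checkpoint ligand PD-L1, was at 15.4 FPKM [7.6 to 23.3] in AT LSC, against 5.29 [3.68 to 6.91] in BM LSC, with a fold of 1.54 ± 0.43 at q 0.003 by the authors' deposited table. The co-stimulatory genes Cd80 and Cd83 were at 3.27 and 8.12 FPKM in AT LSC, against 0.355 and 1.12 in BM LSC. Lgals9, the galectin ligand of Havcr2, was lower, at 50.4 FPKM [21.1 to 79.6] in AT LSC, against 175 [121 to 228] in BM LSC, with a fold of -1.79 ± 0.47 at q 0.00176 by the authors' deposited table, and it remained called after centring. Antigen presentation did not follow. MHC class II genes gave 0 higher and 2 lower of 11 on both scales, with Ciita, their master regulator, at 0.0608 FPKM [0.0132 to 0.108] in AT LSC, against 0.723 [0.455 to 0.992] in BM LSC, and the invariant chain gene Cd74 at 228 and 169. MHC class I genes gave 0 higher and 2 lower of 16 by the authors' deposited table, a share of 12.5% lower, with 0 and 0 once centred.

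Of 29 tested interferon-induced genes, the authors' deposited table called 0 higher and 10 lower in AT LSC, with a median fold of -1.09. After centring they gave 2 higher and 3 lower. Of the 10 called, 6 were immunity-related GTPases, which attack the vacuoles of intracellular microbes. Tgtp1 and its near-identical copy Tgtp2, whose reads cannot be told apart, were at 9.08 and 9.14 FPKM in AT LSC, against 60 and 60.5 in BM LSC, and both had folds of about -2.72 by the authors' deposited table. Igtp was at 4.86 FPKM [2.27 to 7.44] in AT LSC, against 16.8 [11.8 to 21.8] in BM LSC, with a fold of -1.79 ± 0.44 at q 0.000646 by the authors' deposited table, and stayed called after centring. Ifi47 was at 9.85 FPKM [0.161 to 19.5] in AT LSC, against 56 [24.8 to 87.2] in BM LSC, and was not called after centring. Cxcl10, a chemokine of the CXC list that interferon and NF-kB both induce, was called higher, at 8.39 FPKM in AT LSC, against 1.33 in BM LSC.

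Of 24 tested iron and heme genes, 4 were called higher and 3 lower by the authors' deposited table, with a median fold of -0.19, and 6 and 1 after centring. The deposited shares were 16.7% higher and 12.5% lower, against 7.24% and 15.5% of all tested genes. Hmox1, heme oxygenase, was at 209 FPKM [75.8 to 342] in AT LSC, against 15.5 [10.8 to 20.1] in BM LSC, a fold of 3.76 ± 0.51 at q 2.12e-11 by the authors' deposited table. Slc11a1, the phagosomal metal exporter NRAMP1 (chromosome 1, 74375203 to 74386051), was at 25.7 FPKM [11.7 to 39.8] in AT LSC, against 1.3 [0.779 to 1.82] in BM LSC, with a fold of 4.31 ± 0.49 at q listed as 0 by the authors' deposited table. Fth1, ferritin heavy chain, was at 462 FPKM [172 to 753] in AT LSC, against 186 [127 to 245] in BM LSC, near the threshold with q 0.0461 by the authors' deposited table. The heme synthesis genes Urod and Alad were called lower, at 5.07 and 0.594 FPKM in AT LSC, against 11.9 and 2.03 in BM LSC, but not after centring. Ftl1, ferritin light chain, was at 2987 FPKM in AT LSC, against 1337 in BM LSC, and was called only after centring. The biliverdin reductase genes Blvra and Blvrb, which act after heme oxygenase, were not called either, at 13.2 and 9.66 FPKM in AT LSC, against 14 and 12.1 in BM LSC.

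Redox genes under the stress factor NRF2 gave 7 higher and 0 lower of 20 tested by the authors' deposited table, with 8 and 0 once centred. Nfe2l2, which encodes NRF2 itself, was at 38 FPKM [17.8 to 58.1] in AT LSC, against 13.3 [9.34 to 17.3] in BM LSC, with q 0.00503 by the authors' deposited table. Sqstm1, the selective autophagy receptor p62, was at 49.7 FPKM in AT LSC, against 10.6 in BM LSC, a fold of 2.23 ± 0.44 at q 9.68e-06 by the authors' deposited table. The abundant genes Gpx1 and Prdx1 were not called, at 540 and 92.7 FPKM in AT LSC, against 484 and 89.5 in BM LSC.

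Lipid uptake and droplet genes gave 9 higher and 1 lower of 29 tested by the authors' deposited table, with 13 and 0 once centred and a median fold of 0.97. On the deposited scale 31.0% were higher, against 7.24% of all tested genes. Hilpda, a lipid droplet protein that inhibits lipolysis, was at 104 FPKM [41.7 to 166] in AT LSC, against 19.2 [12.9 to 25.5] in BM LSC, with a fold of 2.44 ± 0.49 at q 1.96e-05 by the authors' deposited table. G0s2, another inhibitor of lipolysis, was at 8.26 FPKM in AT LSC, against 1.05 in BM LSC, a fold of 2.97 ± 0.59 at q 1.19e-05 by the authors' deposited table. Of the nuclear receptors that control these genes, Pparg was at 5.84 FPKM [2.22 to 9.45] in AT LSC, against 0.822 [0.446 to 1.2] in BM LSC, and Nr1h3, the oxysterol receptor LXR-alpha, at 5.37 [2.7 to 8.04] and 0.73 [0.394 to 1.06]. Oxidation enzymes did not share that direction. Fatty acid oxidation enzymes gave 0 higher and 8 lower of 27 by the authors' deposited table, with 1 and 2 once centred. Their deposited share called lower was 29.6%, against 15.5% of all tested genes, but their median fold of -0.64 was near the -0.47 of all tested genes. Crot, a peroxisomal carnitine acyltransferase, was at 2.77 FPKM in AT LSC, against 9.37 in BM LSC, and Nudt7, a peroxisomal coenzyme A hydrolase, at 1.04 and 11.4. Both remained called after centring, whereas Hadh and Echs1, enzymes of mitochondrial beta-oxidation, did not, at 9.44 and 10.6 FPKM in AT LSC, against 23.8 and 24 in BM LSC.

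Lysosomal hydrolases gave 7 higher and 0 lower of 28 tested by the authors' deposited table, with 11 and 0 once centred. Ctsb, cathepsin B, was at 115 FPKM [43.3 to 187] in AT LSC, against 30.6 [20.8 to 40.3] in BM LSC, a fold of 1.91 ± 0.51 at q 0.00172 by the authors' deposited table. Lgmn, legumain, was at 7.76 FPKM in AT LSC, against 1.42 in BM LSC. Ctss, cathepsin S, was at 158 FPKM in AT LSC, against 31.6 in BM LSC, but the authors' test of it failed. Tfeb, the transcription factor of lysosome formation, was at 1.1 FPKM [0.417 to 1.78] in AT LSC, against 0.11 [0.0329 to 0.186] in BM LSC, with a fold of 3.33 ± 0.67 at q 2.03e-05 by the authors' deposited table. Tfeb was counted with the lysosomal membrane and proton pump genes, of which 14.3% (4 of 28) were called higher and 0 lower by the authors' deposited table, with 6 and 0 once centred.

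Granule genes divided by the stage at which they are made. Late neutrophil granule and alarmin genes gave 12 higher and 0 lower of 18 tested by the authors' deposited table, with a median fold of 1.68, and primary granule genes 3 and 1 of 15, with a median of 0.09. After centring these were 14 and 0, and 3 and 0. Ngp, a secondary granule protein, was at 1605 FPKM [643 to 2567] in AT LSC, against 301 [168 to 435] in BM LSC, and Camp, a cathelicidin, at 192 [91.8 to 292] and 40.5 [23.3 to 57.8]. The alarmins S100a8 and S100a9 were at 1331 and 707 FPKM in AT LSC, against 320 and 164 in BM LSC. In contrast Mpo, the primary granule peroxidase, was at 114 FPKM [38.1 to 189] in AT LSC, against 107 [66.7 to 146] in BM LSC, and was not called, with q 0.952 by the authors' deposited table. The 3 primary granule genes called higher were eosinophil-type ribonucleases of the Ear family, a set of similar genes on chromosome 14. All 6 tested Ear genes were called, with folds of 2.30 to 2.47 by the authors' deposited table, and reads could be split among the copies. The same holds for Lyz1 and Lyz2, the lysozyme pair, at 854 and 852 FPKM in AT LSC, against 122 and 121 in BM LSC, and for the Stfa stefins of chromosome 16, where 6 of 6 tested were called higher. Levels of granule genes moved with the summed neutrophil markers given above, several of which are the same genes.

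Transcription factors differed by lineage. Of 24 tested C/EBP and myeloid factors, 9 were called higher and 2 lower by the authors' deposited table, and of 25 erythroid, megakaryocyte and stem cell factors, 0 and 10. After centring these became 12 and 0, and 0 and 3. Id3, an inhibitor of E proteins, was at 7.47 FPKM [3.09 to 11.8] in AT LSC, against 0.479 [0.168 to 0.79] in BM LSC, with q 2.12e-08 by the authors' deposited table. Irf5, an effector of Toll-like receptors, was at 15.7 FPKM in AT LSC, against 5.25 in BM LSC, and Cebpe, required for late granules, at 3.21 and 0.87. Gata1, the erythroid and megakaryocyte regulator, was at 8.24 FPKM [3.44 to 13] in AT LSC, against 25.3 [17.8 to 32.9] in BM LSC, with a fold of -1.62 ± 0.47 at q 0.00522 by the authors' deposited table. Gata2, the mast cell and stem cell factor, was at 4.08 FPKM in AT LSC, against 10.9 in BM LSC, and neither GATA gene was called after centring. Meis1, the HOX cofactor, was at 3.21 FPKM [1.27 to 5.13] in AT LSC, against 12.1 [7.77 to 16.5] in BM LSC, and remained called after centring, as the only called gene of 18 tested in its list of HOX, MEIS and PBX genes.

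Many effector genes of the other lineages were called lower in AT LSC. Megakaryocyte and platelet genes gave 1 higher and 9 lower of 18 tested by the authors' deposited table, mast cell and basophil genes 1 and 8 of 17, and erythroid genes 0 and 7 of 16. After centring these were 3 and 7, 3 and 5, and 1 and 4. Cpa3, carboxypeptidase A of mast cells, was at 17.5 FPKM [7.5 to 27.5] in AT LSC, against 113 [74 to 152] in BM LSC, with a fold of -2.69 ± 0.48 at q 9.32e-07 by the authors' deposited table. The basophil proteases were not called lower, with Mcpt8 at 287 FPKM [120 to 453] in AT LSC, against 234 [161 to 307] in BM LSC, and not called. Prss34 was at 409 FPKM in AT LSC, against 204 in BM LSC, and was called only after centring. Gp9, part of the platelet von Willebrand factor receptor, was at 1.37 FPKM in AT LSC, against 8.21 in BM LSC. Rhag, a red cell ammonia channel, was at 1.39 FPKM in AT LSC, against 11.3 in BM LSC, a fold of -3.02 ± 0.50 at q 9.05e-08 by the authors' deposited table. Gp9, Rhag and Cpa3 all remained called after centring. The summed levels of the marker genes were 10.4 FPKM in AT LSC, against 65.6 in BM LSC, for megakaryocytes, 33.5 against 167 for mast cells and 415 against 572 for red cells. Globin gave most of the red cell sum, in opposite directions. The merged entry of Hba-a1 and Hba-a2 was at 260 FPKM in AT LSC, against 207 in BM LSC. That of Hbb-b1 and Hbb-b2 was at 154 and 364, and neither entry was called.

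**Figure D3:**
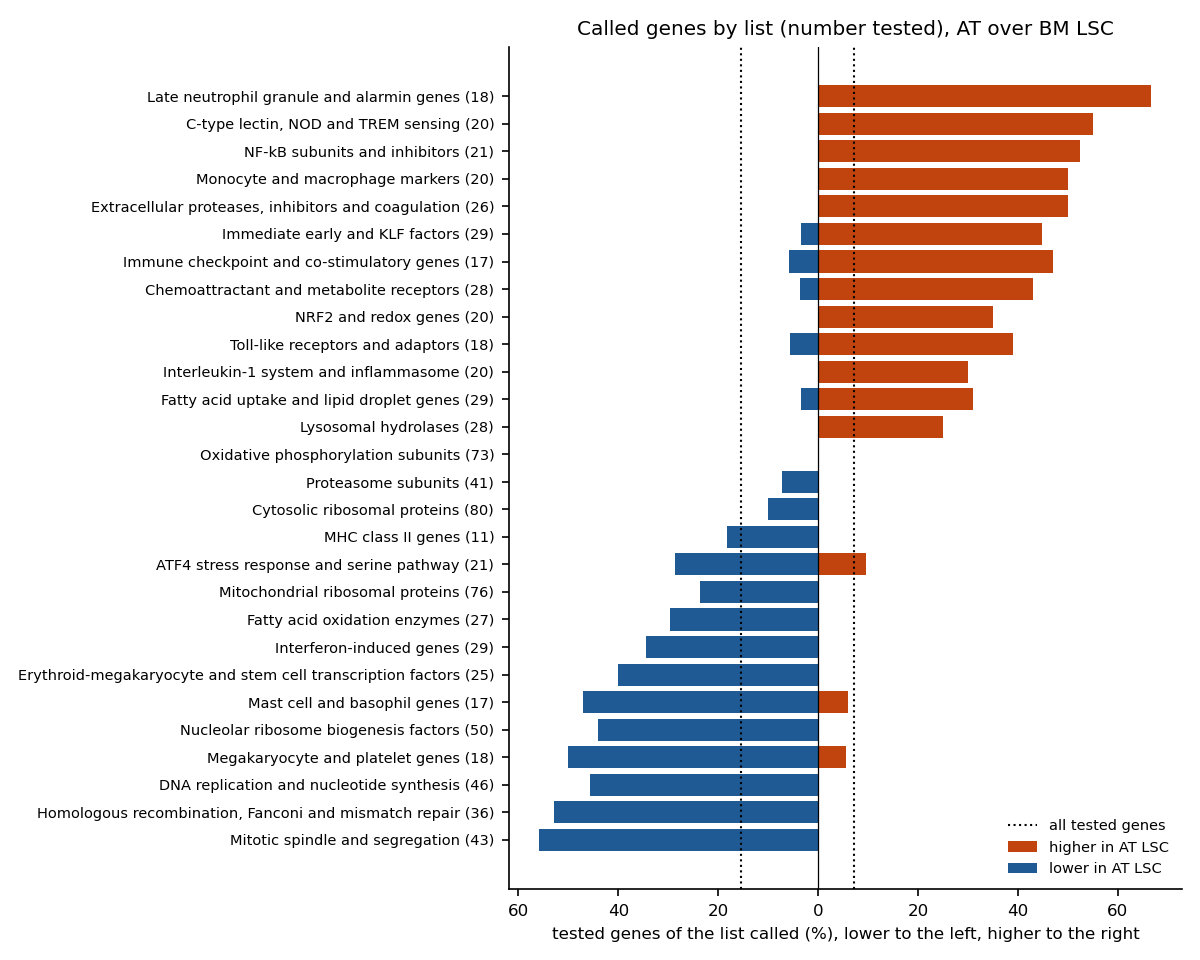
Share of the tested genes of 28 lists called higher (red, to the right) and lower (blue, to the left) in AT LSC against BM LSC, in percent, with dotted lines at the shares of all tested genes (7.24% and 15.5%). Among the lists drawn, granule, sensing and NF-kB lists reach furthest right and mitotic and repair lists furthest left. Respiratory chain subunits have no called gene. After centring the blue bars shrink, to 6 of 43 genes for mitosis. The stromal and matrix list, with 81.2% called higher, is not drawn.

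Genes for making ribosomes were called lower in AT LSC more often than ribosomal proteins themselves, on the scale of the deposited folds. Nucleolar factors gave 0 higher and 22 lower of 50 tested by the authors' deposited table, and cytosolic ribosomal proteins 0 and 8 of 80, a smaller share than the 15.5% of all tested genes. Median folds were -1.16 and -0.94. After centring these counts became 0 and 3 for nucleolar factors and 0 and 0 for ribosomal proteins. Npm1, the nucleolar chaperone, was at 139 FPKM [51.7 to 226] in AT LSC, against 355 [235 to 475] in BM LSC, near the threshold with q 0.0419 by the authors' deposited table, and its call was lost on centring. Polr1b and Polr1e, subunits of RNA polymerase I, were at 2.12 and 1.36 FPKM in AT LSC, against 7.66 and 5.67 in BM LSC, and both remained called after centring. Mitochondrial ribosomal proteins gave 0 and 18 of 76, with 0 and 1 after centring, and tRNA synthetases 0 and 5 of 20 by the authors' deposited table, with 0 and 1 after centring.

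On the deposited scale the respiratory chain, unlike the protein synthesis lists, had no called gene. After centring those lists also had few or no called genes. Of 73 tested subunits, 0 were called higher and 0 lower by the authors' deposited table, and likewise after centring, with a median fold of -0.57, close to the -0.47 of all tested genes. Cox4i1, a subunit of cytochrome oxidase, was at 141 FPKM in AT LSC, against 170 in BM LSC. Proteasome subunits gave 0 and 3 of 41, and 0 and 1 after centring, among them Psmb9 and Psmb10 of the interferon-induced immunoproteasome, with Psmb9 at 8.36 FPKM [3.92 to 12.8] in AT LSC, against 26 [17.9 to 34.1] in BM LSC.

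Genes of nucleotide synthesis, replication, segregation and repair were lower in AT LSC, fewer of them after centring. DNA replication and nucleotide synthesis genes gave 0 higher and 21 lower of 46 tested by the authors' deposited table, mitotic genes 0 and 24 of 43, and recombination, Fanconi and mismatch repair genes 0 and 19 of 36. After centring the counts of lower calls were 4, 6 and 7, with 0 higher in each. Impdh2, the committed enzyme of guanine nucleotide synthesis, was at 24.6 FPKM [10.2 to 38.9] in AT LSC, against 77.9 [54.2 to 102] in BM LSC, with a fold of -1.67 ± 0.47 at q 0.00411 by the authors' deposited table, and its call was lost on centring. Gart, an enzyme of purine synthesis, was at 5.87 FPKM [2.46 to 9.27] in AT LSC, against 19.8 [13.9 to 25.6] in BM LSC, and remained called. Rrm2 and Pcna, markers of S phase, were at 44.6 and 26.8 FPKM in AT LSC, against 56 and 38.2 in BM LSC, and were not called. Chek2, a DNA damage kinase, was at 0.725 FPKM [0.284 to 1.17] in AT LSC, against 3.82 [2.53 to 5.1] in BM LSC, a fold of -2.40 ± 0.50 at q 4.03e-05 by the authors' deposited table. Chek2 remained called after centring.

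Among E2F factors, cyclin-dependent kinases and their inhibitors 6 were called higher and 4 lower of 30 tested by the authors' deposited table, a share of 13.3% lower against 15.5% of all tested genes, and 7 and 1 after centring. Cdkn1a, the inhibitor p21, was at 41.8 FPKM [18.9 to 64.7] in AT LSC, against 16.2 [11.4 to 21.1] in BM LSC, with a fold of 1.36 ± 0.45 at q 0.0158 by the authors' deposited table. Another inhibitor gene, Cdkn2c, was called lower, but not after centring. Cdk4, a kinase of the G1 phase, was at 32.5 FPKM in AT LSC, against 84.3 in BM LSC, and E2f8, a late E2F repressor, at 2.38 and 10.4, and of these E2f8 remained called after centring.

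**Figure D4:**
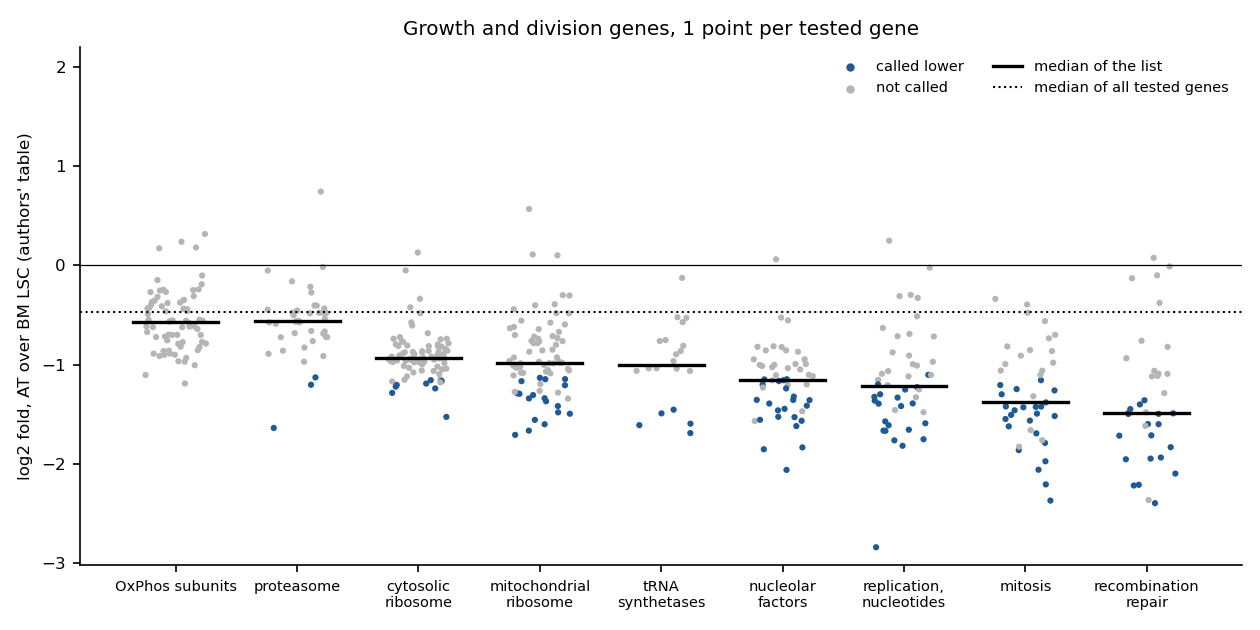
Log2 fold of AT LSC over BM LSC by the authors' deposited table (vertical axis) for each tested gene of 9 growth and division lists, with called-lower genes in blue, the list median as a bar and the median of all tested genes (-0.47) dotted. Respiratory chain and proteasome medians lie near the dotted line and the medians step down to mitosis and recombination repair; the lists with many lower calls on this scale had few after centring.

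Many mitotic promoters share the cell cycle homology region, the letters TTTGAA, searched on both strands. It lay in 18 of 24 windows of mitotic genes called lower, or 16 of 22 genes, against 17.9% of all windows. Its share was alike with uncalled genes included, at 28 of 37 windows of the whole mitotic list. Replication genes called lower held it in 3 of 20 windows, and repair genes in 0 of 13. The E2F motif, TTTGGCGC or TTTCGCGC, lay in 1.78% of the windows of genes called lower, 0.983% of those called higher and 1.55% of those tested and not called. Bub1b, the checkpoint kinase BubR1, was at 2.76 FPKM [1.24 to 4.28] in AT LSC, against 12.7 [8.88 to 16.6] in BM LSC. Plk1, the polo kinase of mitotic entry, was at 4.29 FPKM [1.96 to 6.62] in AT LSC, against 14.8 [10.3 to 19.3] in BM LSC, and Cdk1, the mitotic kinase, at 4.44 and 10.2. The authors' deposited table called all 3 lower, and after centring Bub1b and Plk1 remained called. Their windows are shown because the motif (capitals) lies near the start in each.
Bub1b, chr2:118597961-118598260, plus strand: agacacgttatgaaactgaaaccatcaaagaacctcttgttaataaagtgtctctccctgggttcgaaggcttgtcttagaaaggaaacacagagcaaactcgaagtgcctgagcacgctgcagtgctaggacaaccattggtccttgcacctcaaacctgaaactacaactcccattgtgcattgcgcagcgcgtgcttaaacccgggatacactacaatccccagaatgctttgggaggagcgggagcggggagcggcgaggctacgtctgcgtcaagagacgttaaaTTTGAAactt
Plk1, chr7:122159185-122159484, plus strand: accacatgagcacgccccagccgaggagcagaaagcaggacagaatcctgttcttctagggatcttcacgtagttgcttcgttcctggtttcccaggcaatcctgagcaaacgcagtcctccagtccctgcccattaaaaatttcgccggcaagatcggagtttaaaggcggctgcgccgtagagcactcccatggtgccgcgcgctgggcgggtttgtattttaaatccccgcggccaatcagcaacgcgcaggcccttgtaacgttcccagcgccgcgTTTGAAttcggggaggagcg
Cdk1, chr10:69352863-69353162, minus strand: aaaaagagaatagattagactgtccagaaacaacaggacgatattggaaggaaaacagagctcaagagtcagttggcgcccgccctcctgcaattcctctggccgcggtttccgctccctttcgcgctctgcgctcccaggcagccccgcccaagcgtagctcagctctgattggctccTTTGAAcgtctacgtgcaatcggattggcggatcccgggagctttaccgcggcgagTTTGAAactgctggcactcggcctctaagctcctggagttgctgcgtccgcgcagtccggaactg
The match began 40 bases after the first base of Bub1b, 30 after that of Plk1, and 71 and 15 bases before that of Cdk1.

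Of 21 tested genes under the stress factor ATF4, 2 were called higher and 6 lower by the authors' deposited table, which became 3 and 0 after centring, so the balance flipped. Phgdh and Psat1, of serine synthesis, and Asns, asparagine synthetase, were at 21.2, 16.7 and 15.8 FPKM in AT LSC, against 58.2, 51.5 and 46.4 in BM LSC, and none of them was called after centring. Chac1, which degrades glutathione, was at 6.9 FPKM [2.67 to 11.1] in AT LSC, against 1.39 [0.811 to 1.97] in BM LSC, with a fold of 2.31 ± 0.53 at q 0.000248 by the authors' deposited table.

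BCL2 family genes gave 7 higher and 2 lower of 16 tested by the authors' deposited table, with 8 and 1 once centred. The deposited shares were 43.8% higher and 12.5% lower, against 7.24% and 15.5% of all tested genes. The prosurvival gene Bcl2 was at 3.86 FPKM [1.24 to 6.49] in AT LSC, against 14.8 [8.4 to 21.1] in BM LSC, with q 0.00699 there, and was not called after centring. The prosurvival Bcl2a1 copies were at 67.1 to 94.7 FPKM in AT LSC, against 11 to 15.2 FPKM in BM LSC, and since the 4 copies share sequence they count as little more than a single observation. Bcl2l11, the death effector BIM, was at 4.25 FPKM [1.5 to 7.01] in AT LSC, against 0.436 [0.206 to 0.665] in BM LSC, a fold of 3.29 ± 0.60 at q 1.72e-06 by the authors' deposited table.

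Several of the largest negative folds fell outside these lists. Erv3, an endogenous retroviral gene (chromosome 2, 131853678 to 131859747), was at 1.4 FPKM [0.55 to 2.26] in AT LSC, against 26.9 [18.2 to 35.6] in BM LSC, a fold of -4.26 ± 0.50 at q listed as 0 by the authors' deposited table. Muc13, a transmembrane mucin, was at 20.6 FPKM [6.91 to 34.4] in AT LSC, against 158 [108 to 208] in BM LSC. Apoa1, the apolipoprotein of high-density lipoprotein, was at 6.55 FPKM [2.37 to 10.7] in AT LSC, against 81.2 [56.6 to 106] in BM LSC, with a fold of -3.63 ± 0.51 at q 1.2e-10 by the authors' deposited table. Tph1, which makes serotonin in mast cells, was at 12.6 FPKM [0 to 28.9] in AT LSC, against 135 [48.4 to 221] in BM LSC, with a wide error of 1.04 on a fold of -3.42 by the authors' deposited table. Some clustered gene families were picked after their values were seen. Of these, 8 of 8 tested Ces2 carboxylesterases on chromosome 8 and 12 of 12 tested Psg genes on chromosome 7 were called lower. In the Cd300 receptors on chromosome 11, 7 of 7 tested were called higher by the authors' deposited table. The Ceacam family was mixed, with 4 higher and 1 lower of 7 tested. Of all tested genes, 7.24% were called higher and 15.5% lower. Members of such families share sequence, so reads may be split among them and the copies are not independent.

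Levels in blood (BL LSC) and spleen (SPL LSC) are given for some genes picked by hand, beside those in AT LSC and BM LSC. BL LSC and SPL LSC came from the same model, sex, age and day, with 3 libraries each. The comparisons share groups, so their values are set side by side and not tested against each other. On the deposited scale, the share of tested genes called was 6.52% for AT LSC over BL LSC and 25.1% for AT LSC over SPL LSC. It was 33.3% for BL LSC over BM LSC and 2.69% for SPL LSC over BM LSC. Pooled depth was 8.96e+06 estimated counts for SPL LSC and 1.95e+07 for BL LSC, against 1.96e+07 for AT LSC and 1.65e+07 for BM LSC. The part of depth in these shares was not tested. C5ar1 was at 96.2 FPKM in AT LSC, 96.1 in BL LSC, 14.3 in SPL LSC and 17.7 in BM LSC, and Plaur at 200, 195, 17.8 and 31 FPKM in the same order. Their folds of AT LSC over BL LSC were 0.00 ± 0.50 and 0.04 ± 0.49 by the authors' deposited table, so both were high in fat and blood, and neither was called between them. The lipid genes Fabp4 and Pparg were not called between fat and blood either, at 46.2 and 5.84 FPKM in AT LSC, against 31.8 and 4.7 in BL LSC. Cd14, Trem1 and Serpinb2 were likewise not called there, whereas Hmox1, Nlrp3 and S100a8 were called higher in AT LSC than in BL LSC. Cxcl2 was at 123 FPKM in AT LSC, 13.4 in BL LSC, 4.92 in SPL LSC and 8.64 in BM LSC, and Csf2, which encodes GM-CSF, at 79.8, 2.77, 2.52 and 6 FPKM. Their folds of AT LSC over BL LSC were 3.20 ± 0.48 and 4.85 ± 0.53 by the authors' deposited table. Ngp was at 1605 FPKM in AT LSC, 348 in BL LSC, 242 in SPL LSC and 301 in BM LSC, and Marco at 48.5, 6.72, 1.1 and 0.251 FPKM, and both were called higher in AT LSC than in BL LSC there. Bub1b was at 2.76 FPKM in AT LSC, 2.32 in BL LSC, 15.6 in SPL LSC and 12.7 in BM LSC, low in fat and blood alike. Erv3 was at 1.4, 2.38 and 3.61 FPKM in AT LSC, BL LSC and SPL LSC, against 26.9 FPKM in BM LSC, with its highest level in marrow.

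**Figure D5:**
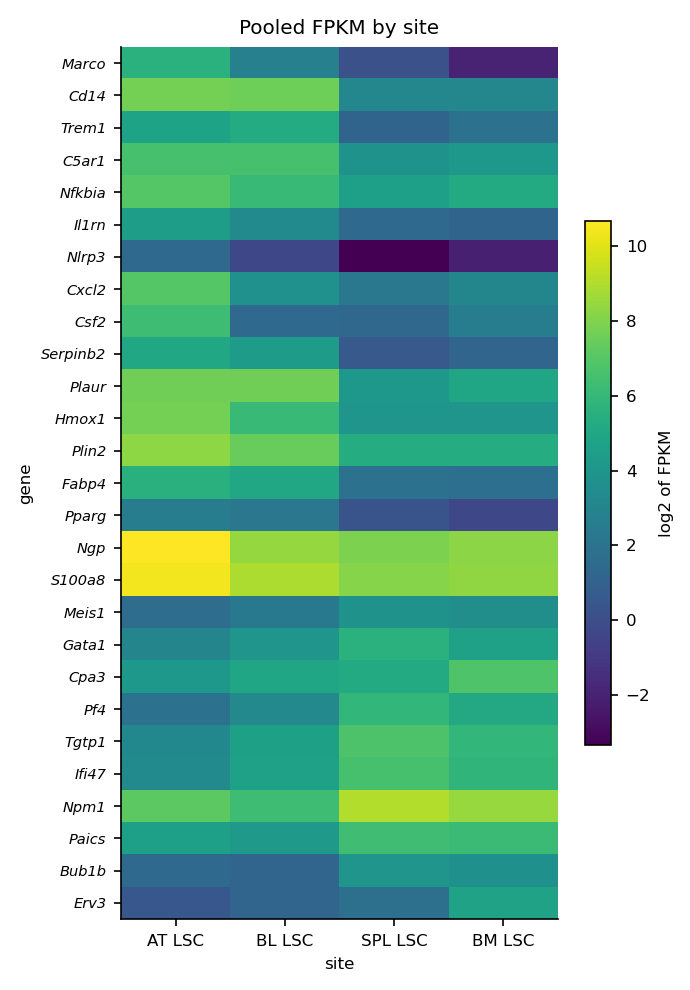
Pooled FPKM of 27 genes picked by hand (rows, log2 colour scale) in AT LSC, BL LSC, SPL LSC and BM LSC (columns). Csf2 and Cxcl2 are brightest in AT LSC, C5ar1 and Plaur in AT LSC and BL LSC, and Bub1b in SPL LSC and BM LSC.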

How the data were processed

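RNA from sorted LSC was extracted with RNeasy Plus, amplified with a SMARTer low-input kit and made into libraries with Nextera XT, per the labels' protocols. Reads were trimmed with Trimmomatic 0.32 and quantified with Cufflinks 2.0.2 and Cuffdiff on mm10, per the submitters' processing notes. For the aligner, annotation and Cuffdiff version, nothing is given in the sources used here. Each FPKM deposited by the authors is 1 value per gene and group, pooled over libraries with bounds 2 SD away, and the deposited estimated counts are pooled likewise. The deposited score columns, including the test statistic, gave each standard error, as the fold divided by that statistic. The deposited log2 folds run BM LSC over AT LSC and were turned round. The deposited p-value and q-value columns are those of the authors: q equals the Benjamini-Hochberg value computed across 127922 tests, from all 10 comparisons at once, to within 1.7e-06.

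A gene was called at a deposited q below 0.05. Centred folds had the median of tested genes removed, with p and q recomputed from the same standard errors. The step was run on simulated data in which few genes changed, about equally in both directions. Those data differ from the real ones in this, so whether centring suits the real data was not tested. No fold is given where a group had at most 3 estimated counts, or where the authors' test failed. No test between libraries was possible, because 3 libraries a group were merged into 1 value; their number and the bounds limit the precision. Genes were named by a rule: the 15 largest folds in each direction at 10 FPKM or more, up to 8 called and 4 uncalled genes per list, the 15 largest FPKM differences, and fixed markers. Nfkbia, Gpr65, Cdk1, Tgtp2, Osm, Paics, Tlr12 and Cdkn2c may fall outside it and were chosen after their values were seen. Gene families with shared sequence were likewise chosen after their values were seen. For the largest folds, the rule passed over predicted genes, merged entries and infinite folds. Members and lists were chosen with earlier results of these data known. Promoter sequences are from RefSeq, GRCm38.p6. Python 3.11.15, pandas 2.3.3 and SciPy 1.17.1 were used. Results for a few genes are not reported here.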

Additional observations from a re-analysis of the deposited data

How the results depend on the processing

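No paired analysis was possible because the deposited values are pooled per group, and leaving out replicates was not run for the same reason. Of 953 genes called higher and 2046 called lower in the authors' deposited table, centring gave 1557 and 673, upper quartile scaling 1523 and 698, genes at 5 FPKM or more 332 and 1002, and q below 0.01 626 and 970. Total count scaling gave 991 called lower. A minimum of 5 FPKM kept 4421 genes. The scalings shifted all folds by 0.477, 0.459 and 0.311. The excess of higher over lower calls reversed for JAK-STAT genes to 5 under the 3 scalings and to 3 at q below 0.01, and for dendritic cell markers to 1 under all of these. It became 3, 3 and 1 for adhesion receptors under centring, upper quartile and total count scaling, and 2, 2 and 1 for glycolysis, with 1 at q below 0.01. It became 3 and 2 for ATF4 genes under centring and upper quartile scaling, 1 for T and NK cell markers under the 3 scalings, and 1 for Polycomb genes under centring, upper quartile scaling and a 1 FPKM minimum. Uncalled folds turned positive for Cox4i1 (0.207, 0.189 and 0.042 under centring, upper quartile and total count scaling), Nfkb1 (0.054 and 0.036 under centring and upper quartile scaling), Rrm2 (0.149 and 0.13) and Blvrb (0.147 and 0.128), and for Blvra (0.396, 0.377 and 0.23 under the 3 scalings). Among the genes named, 20 lost and 4 gained their call under centring. The scalings differ by construction in the constant added to every fold. Dendritic, adhesion, glycolysis and Polycomb lists are not described further.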
